A study of Rattus norvegicus with 6 samples.

Results

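The subject is the set of genes that carry glucose into the cell, move lactate and pyruvate across membranes and run glycolysis, measured in rat prostate (Rattus norvegicus). The rule for members uses gene names and no measured value, although it was written with earlier results of these data known. It takes every row of the deposited table named as a numbered Slc2a or Slc16a gene, plus a fixed list of glycolytic enzymes and their regulators. The rule found 44 of the 32883 rows, namely 13 Slc16 rows, 12 Slc2 rows and 19 enzyme or regulator rows. Gapdh, the glyceraldehyde-3-phosphate dehydrogenase named in the rule, had no row and is not analysed here. Of the 44 members, 39 had enough counts to be tested, 20 transporters and all 19 enzymes and regulators.

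The hormone group was 3 prostate tissues from rats that carried 4 pellets under the skin for 4 weeks, with testosterone at 25 mg and estradiol at 2.5 mg in each pellet. All 6 samples carry a label for benign prostatic hyperplasia, so it was not used for grouping. The control group was 3 prostate tissues from rats that had an incision and staples but no pellet. The labels give no strain, age or prostate lobe, and they do not say whether each tissue came from its own animal, so the p-values speak only of the spread among tissues, which may be technical. The question was which transcripts differ between prostates under both hormones and prostates without them.

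Glucose enters most cells through facilitative carriers of the Slc2 (GLUT) family, is trapped by hexokinase, is committed to glycolysis by phosphofructokinase and ends as pyruvate, which lactate dehydrogenase interconverts with lactate. Carriers of the Slc16 (MCT) family move lactate, pyruvate and, for some members, amino acids or other small molecules, while the substrate of several members is not settled. The prostate epithelium is known for secreting citrate, which draws on glucose-derived pyruvate rather than burning it.

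Raw read counts per gene were compared with edgeR's quasi-likelihood test over 14003 genes, with library sizes scaled by TMM, and a gene was called at a Benjamini-Hochberg adjusted p under 0.05. Levels below are CPM (counts relative to the TMM-scaled library size) unless FPKM, which also divides by gene length, is named. Library totals ran from 13744680 to 15949500 counts in hormone libraries and from 12931982 to 15809858 in control libraries. Members together took 0.149% to 0.174% of the counts of hormone libraries and 0.166% to 0.213% of the counts of control libraries. Control 1 was the library least like its group, with correlations of log2 CPM of 0.966 and 0.954 to controls 2 and 3, against 0.973 between those and 0.972 to 0.979 among hormone libraries. Smooth muscle markers summed to 4394, 4721 and 6625 CPM in hormone libraries 1 to 3 and to 10160, 6258 and 4926 CPM in controls 1 to 3, with the most in control 1. The 7 macrophage markers summed to 502, 306 and 326 CPM in hormone libraries 1 to 3 and to 87.1, 275 and 155 CPM in controls 1 to 3. None of these 7 or of the 8 smooth muscle markers was at 0 in any library, and 0 of either list were called. All 7 macrophage markers had a positive log2 fold change, with a median of 1.13, and all 8 smooth muscle markers a negative one, with a median of -0.45. An unadjusted edgeR p under 0.05 was seen for 5 of the 7 and for 1 of the 8, where 22.8% of all genes tested had one. Of the 8 seminal vesicle and coagulating gland rows, 1 was tested, Semg1, and it was not called (edgeR adjusted p = 0.674). Semg1 had 4570, 8971 and 3481 CPM in hormone libraries and 3855, 1074 and 23733 CPM in controls. Pate4 had 0 counts in every hormone library and 3066, 763 and 1 counts in controls 1 to 3. The part of these glands in the tissues was not tested. In bulk tissue, fewer cells of a type and less RNA per cell cannot be told apart. All 10 markers of prostate luminal epithelium tested, among them Hoxb13, Krt8 and Tgm4, had counts in every library, and 1 of them, Krt8, was called higher. Of these 10, 8 had a positive fold change and 2 a negative one. An unadjusted edgeR p under 0.05 was seen for 6 of them, where 22.8% of all genes tested had one. In 5 every hormone library was above every control, and in 1, Hoxb13, below, beside 16.1% and 15.3% of all genes tested. Of the 10 cell cycle markers tested, 9 were called higher and 0 lower, beside 2.39% and 0.886% of all genes tested. The cell cycle sums were 162, 126 and 164 CPM in hormone libraries and 54.5, 44.0 and 41.0 CPM in controls.

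Of the 39 members tested, 2 rose and 0 fell, where 2.39% of all 14003 genes were called higher (334 genes) and 0.886% lower (124 genes). Both directions together gave 5.13% of the members, beside a background of 3.27%. With library totals in place of TMM, 259 genes were higher and 230 lower. The median log2 fold change, hormone minus control, was -0.18 over the members and -0.00148 over all genes tested. At an unadjusted p under 0.05 there were 10 members, or 25.6%, near the background of 22.8% (3188 genes). The 2 members called were Slc16a14, a transporter, and Pfkm, the muscle-type phosphofructokinase.

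**Figure D1:**
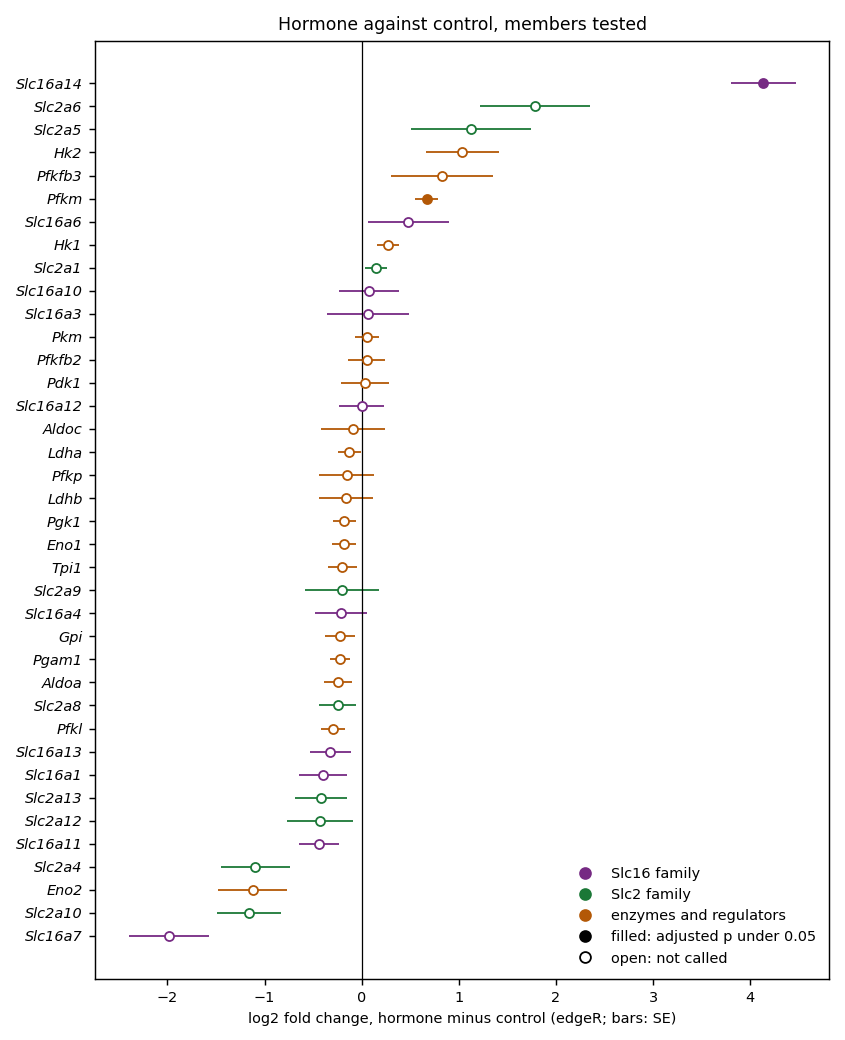
Log2 fold change (x axis, hormone minus control, edgeR; bars are the SE) of 38 of the 39 members tested, ordered from the highest to the lowest. Filled points passed an adjusted p under 0.05, namely Slc16a14 at 4.14 and Pfkm at 0.67, and Slc16a7 had the lowest value, -1.98.

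The start regions of 4 members are shown because these genes carry the differences described below, with phosphofructokinase as a pair of isoforms whose values differ in opposite directions, one of them called. Each sequence is the RefSeq window of 300 bases (250 before the annotated gene start and 50 after it, GRCr8), given 5′ to 3′ along the gene. Of the 44 members, 35 had a window in that collection, and Slc16a14 was not among them. Aldoa had 3 windows and Eno1 and Hk1 had 2 each, so these genes count more than once among the 39 member windows. Capitals mark the letters of a short motif on either strand: the GC box GGGCGG, the CCAAT box, the TATA box TATAAA, the core of the hypoxia response element (ACGTG or GCGTG), the E-box CACGTG (which contains that core), the androgen receptor half-site AGAACA and the nuclear receptor half-site AGGTCA.
Pfkm, chr7:131113849-131114148, plus strand: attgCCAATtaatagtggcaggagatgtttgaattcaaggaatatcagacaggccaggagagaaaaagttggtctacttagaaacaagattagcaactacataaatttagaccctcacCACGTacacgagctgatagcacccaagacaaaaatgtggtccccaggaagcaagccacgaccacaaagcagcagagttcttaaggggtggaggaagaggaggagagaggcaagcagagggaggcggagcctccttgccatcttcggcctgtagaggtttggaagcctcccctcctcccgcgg
Pfkl, chr20:10663715-10664014, plus strand: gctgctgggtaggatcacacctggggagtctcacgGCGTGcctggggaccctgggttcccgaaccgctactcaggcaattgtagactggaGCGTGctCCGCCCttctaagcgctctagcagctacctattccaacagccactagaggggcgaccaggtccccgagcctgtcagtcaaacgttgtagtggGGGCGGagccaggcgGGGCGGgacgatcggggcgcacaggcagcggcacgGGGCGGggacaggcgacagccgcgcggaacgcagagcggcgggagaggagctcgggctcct
Hk2, chr4:116841226-116841525, minus strand: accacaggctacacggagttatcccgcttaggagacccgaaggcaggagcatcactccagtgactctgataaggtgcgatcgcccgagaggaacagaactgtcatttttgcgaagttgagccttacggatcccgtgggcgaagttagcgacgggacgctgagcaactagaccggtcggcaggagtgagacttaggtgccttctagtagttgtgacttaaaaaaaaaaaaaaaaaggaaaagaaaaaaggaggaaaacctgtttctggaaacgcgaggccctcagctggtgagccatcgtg
Slc16a7, chr7:63040349-63040648, minus strand: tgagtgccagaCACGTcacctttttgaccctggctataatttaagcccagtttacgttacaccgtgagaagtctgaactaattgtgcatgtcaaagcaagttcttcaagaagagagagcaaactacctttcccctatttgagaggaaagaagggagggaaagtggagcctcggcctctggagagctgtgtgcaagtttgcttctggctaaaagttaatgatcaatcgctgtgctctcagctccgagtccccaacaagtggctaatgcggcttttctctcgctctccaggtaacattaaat

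These windows differed in the letters they hold. The Pfkl window was 67.7% G or C with 4 GC boxes and 2 hypoxia cores, while the Pfkm window was 50.3% G or C with no GC box, 1 CCAAT box and 1 hypoxia core. The Slc16a7 window held 1 hypoxia core, and the Hk2 window held none of the motifs searched. Over all 33469 windows, 33.1% held a GC box and 41.6% a hypoxia core. Of the 22 windows of the enzymes and regulators, 15 held a GC box and 15 a hypoxia core. The androgen receptor half-site was in 3 of the 39 member windows and in 20.7% of all windows, and the nuclear receptor half-site was in 9 of 39 and in 16.2% of all. A match is a run of letters and not a measured binding site.

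Slc16a14 showed the largest difference of the members. It encodes a carrier of the monocarboxylate transporter family whose substrate is not settled. Its levels were 52.8, 45.3 and 66.2 CPM in hormone libraries 1 to 3, against 3.78, 3.95 and 1.60 CPM in controls 1 to 3. Every hormone library was above every control, and the lowest hormone value stood far above the highest control value. The raw counts were 820, 624 and 847 in the hormone libraries, against 53, 65 and 25 in the controls. Means were 54.8 ± 10.6 CPM in hormone tissue and 3.11 ± 1.31 CPM in control tissue (SD, n = 3 each), a log2 fold change of 4.14 ± 0.34 (SE) or 17.6-fold (edgeR adjusted p = 0.00397). Among the 14003 genes it ranked 30 from the highest fold change and 11 from the smallest p. The call held in all 15 alternative settings, with adjusted p from 1.82e-33 (DESeq2) to 0.0240.

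The gene's place in the family changed with it. Per length, Slc16a14 took 12.2%, 9.81% and 15.5% of the summed Slc16 FPKM in hormone libraries 1 to 3, against 0.769%, 0.828% and 0.327% in controls 1 to 3. The whole Slc16 sum was 59.99, 63.2 and 56.3 FPKM in hormone libraries and 75.6, 70.4 and 70.0 FPKM in controls. The sums did not overlap between groups, and the hormone sum was 0.831 of the control mean, or 0.907 after TMM scaling. The build of the table's coordinates was not given in the sources used here. In them, Slc16a14 (ENSRNOG00000017072) lies on chromosome 9 at 92503597 to 92530938 and overlaps no other gene of the table. Of the 7 other genes tested within 500 kb, 0 were called, with log2 fold changes from -0.10 to 0.70.

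Slc16a7 differed the other way and lay just outside the threshold. It encodes MCT2, a high-affinity carrier of pyruvate and lactate. Levels were 2.57, 3.56 and 5.63 CPM in hormone libraries 1 to 3, against 8.21, 17.2 and 20.9 CPM in controls 1 to 3. The groups did not overlap, and control 1 was the control nearest to the hormone libraries. Means were 3.92 ± 1.56 CPM in hormone tissue and 15.4 ± 6.54 CPM in control tissue, and the log2 fold change was -1.98 ± 0.42 (SE; edgeR adjusted p = 0.0503). It passed with DESeq2 (adjusted p = 0.000165), with library totals only (0.0374), with upper-quartile factors (0.0463), with the replicate block (0.0239) and without control 1 (0.0303), and the adjusted p over the 15 alternatives ran up to 0.167. The gene (ENSRNOG00000007839) spans 68446193 to 68549763 of chromosome 7 in the table.

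The other proton-linked lactate carriers showed no called difference. Slc16a1, which encodes the widely expressed MCT1, had 8.50, 7.70 and 6.17 CPM in hormone libraries and 8.78, 12.9 and 7.89 CPM in controls (log2 fold change -0.40 ± 0.24, adjusted p = 0.363). Slc16a3, which encodes the lactate exporter MCT4 of glycolytic cells, had 19.3, 12.5 and 8.20 CPM in hormone libraries and 20.7, 8.69 and 9.05 CPM in controls (0.07 ± 0.42, adjusted p = 0.945). Both ranges overlapped, and each group held 1 library with a high Slc16a3 value, hormone 1 and control 1. The sign of the Slc16a3 fold change turned negative with library totals only (-0.068). Slc16a8, the MCT3 of retinal pigment epithelium, had 0 counts in the hormone group as a whole and 2 in the control group.

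Slc16a11 and Slc16a13 were the most abundant members of the family per length. They lie side by side on chromosome 10, at 56822756 to 56826479 and 56827594 to 56831243 in the table, and both belong to the less studied members of the family. Slc16a11 had 35.3, 44.2 and 33.1 CPM in hormone libraries and 65.9, 45.6 and 41.1 CPM in controls (log2 fold change -0.44 ± 0.20, adjusted p = 0.250). Slc16a13 had 22.7, 26.4 and 28.4 CPM in hormone libraries and 23.0, 34.9 and 38.8 CPM in controls (-0.32 ± 0.21, adjusted p = 0.386). Control 1 was the highest control for Slc16a11 and the lowest for Slc16a13, so these neighbours did not follow each other across the controls. Of the Slc16 FPKM, Slc16a11 took 27.0% ± 3.05 in hormone tissue and 33.3% ± 8.35 in control tissue, and Slc16a13 took 21.7% ± 2.68 in hormone tissue and 24.6% ± 6.35 in control tissue (SD, n = 3 each).

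The remaining Slc16 members carry other cargo or have no settled substrate. Slc16a10, a carrier of aromatic amino acids, averaged 16.3 ± 3.43 CPM in hormone tissue and 15.4 ± 5.92 CPM in control tissue. Slc16a12, known to move creatine, averaged 8.16 ± 1.15 CPM in hormone tissue and 8.17 ± 1.86 CPM in control tissue. Slc16a4 and Slc16a6 had log2 fold changes of -0.21 and 0.48, with adjusted p of 0.666 and 0.516. Slc16a5 had 16 counts in the hormone group and 25 in the control group, too few to be tested.

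**Figure D2:**
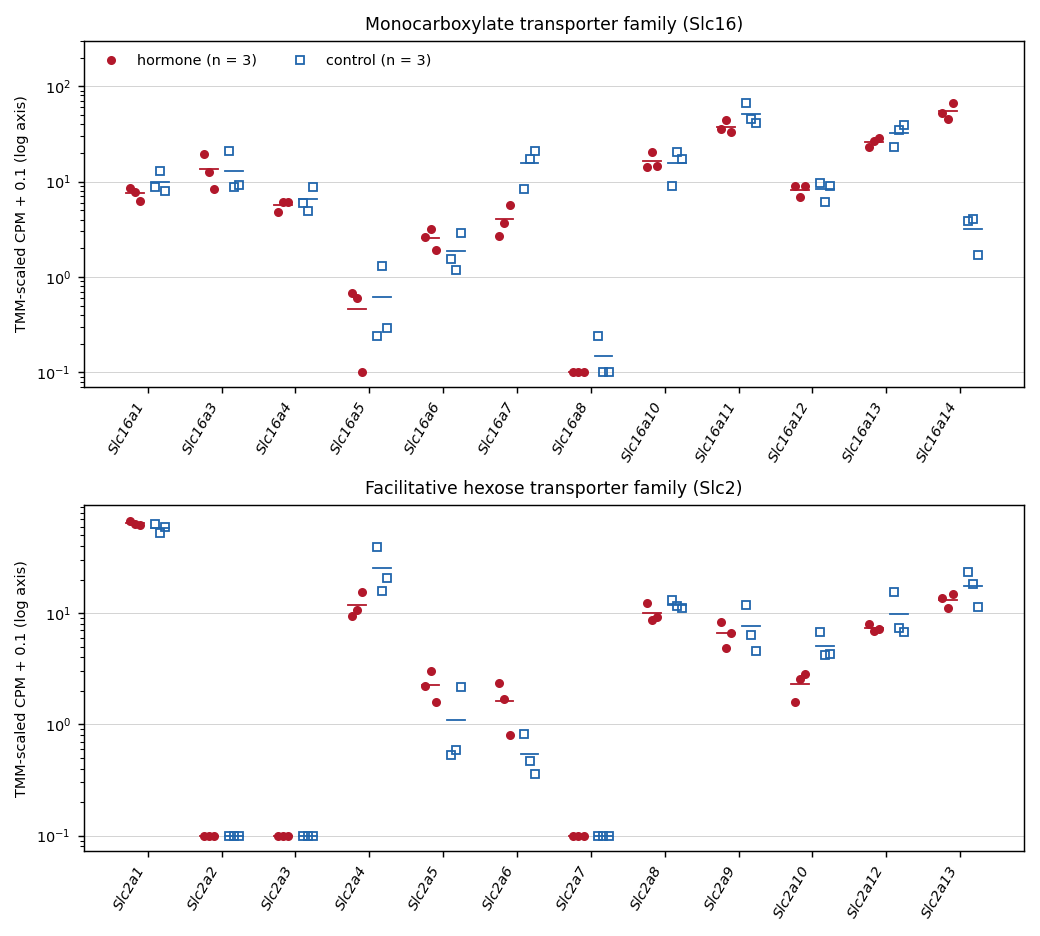
Levels of 12 of the 13 Slc16 members (top) and 12 Slc2 members (bottom) in each library, as TMM-scaled CPM plus 0.1 on a log axis; filled circles are the 3 hormone libraries, open squares the 3 controls, and bars the group means. The Slc16a14 hormone values of 45.3 to 66.2 CPM stand above control values of 1.60 to 3.95 CPM, and Slc2a2, Slc2a3 and Slc2a7 sit at the bottom of the axis with 0 counts.

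Among the glucose transporters, 0 of 9 tested were called, and 3 had an unadjusted p under 0.05, where 22.8% of all genes did. DESeq2 called 2 of the 9, Slc2a4 and Slc2a10. Among the Slc2 members with counts, the most abundant per length was Slc2a1, which encodes GLUT1, the widely expressed basal glucose transporter. It had 67.7, 63.4 and 61.9 CPM in hormone libraries and 63.4, 51.9 and 59.5 CPM in controls (log2 fold change 0.14 ± 0.11, adjusted p = 0.476). Slc2a1 took 58.4%, 60.3% and 56.3% of the summed Slc2 FPKM in hormone libraries, against 40.4%, 49.6% and 52.2% in controls. Its own level overlapped between groups, and the share was higher in every hormone library. The Slc2 sum was 40.4, 36.3 and 36.6 FPKM in hormone libraries and 60.8, 39.1 and 41.0 FPKM in controls, where hormone 1 lay above control 2. Slc2a2, Slc2a3 and Slc2a7 were listed at 0 counts in every library, so this sum and the Slc2a1 share cover only the members with counts.

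Slc2a4 and Slc2a10 had lower values in hormone tissue that did not pass the test. Slc2a4 encodes GLUT4, the insulin-responsive carrier of muscle and fat, and had 9.40, 10.5 and 15.3 CPM in hormone libraries and 39.0, 15.9 and 20.4 CPM in controls. The groups did not overlap, and control 1 was the highest by far. The log2 fold change was -1.09 ± 0.36 (adjusted p = 0.138), and without control 1 it was -0.63 (adjusted p = 0.220, with 0.0349 to 0.327 over the alternatives). Slc2a10, which encodes GLUT10, had 1.48, 2.47 and 2.73 CPM in hormone libraries and 6.64, 4.13 and 4.17 CPM in controls (-1.16 ± 0.33, adjusted p = 0.105). Control 1, the highest for both genes, was also the library with the most smooth muscle marker RNA, and the part of that tissue in these values was not tested. Of the 8 smooth muscle markers tested, 0 had a positive fold change.

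Slc2a6 and Slc2a5 had low levels and positive fold changes that did not pass. Slc2a6, the GLUT6 of leukocytes and lysosomes, had 2.25, 1.60 and 0.703 CPM in hormone libraries and 0.714, 0.364 and 0.257 CPM in controls (log2 fold change 1.78 ± 0.57, adjusted p = 0.132). Its span overlaps Cacfd1, which had 2818 counts over all libraries, and the strand setting of the counting was not given in the sources used here. Slc2a5, the fructose carrier GLUT5, had 2.12, 2.91 and 1.48 CPM in hormone libraries and 0.428, 0.486 and 2.05 CPM in controls (1.12 ± 0.62, adjusted p = 0.319). Control 3 was the high control, and without it the log2 fold change of Slc2a5 was 2.23 (adjusted p = 0.0575, with values up to 0.578 over the alternatives). Both genes overlapped between groups. The macrophage marker sum was also highest in hormone 1, as was Slc2a6. Among the controls, Slc2a6 was highest in control 1, where the macrophage marker sum was lowest, at 87.1 CPM. Slc2a5 was highest in hormone 2 among the hormone libraries. The part of macrophages in the values of either gene was not tested.

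The other tested Slc2 members differed little beside their spread. Slc2a13, the proton-coupled myo-inositol carrier, averaged 13.1 ± 1.81 CPM in hormone tissue and 17.6 ± 6.07 CPM in control tissue. Slc2a8, Slc2a9 (a urate carrier) and Slc2a12 had log2 fold changes of -0.25, -0.21 and -0.43, with adjusted p from 0.467 to 0.780. Slc2a2, Slc2a3 and Slc2a7 were listed at 0 counts in every library. The broadly expressed transcription factor gene Mtf1 was listed at 0 as well, so these zeros are not read as an absence of GLUT2, GLUT3 or GLUT7 transcripts.

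The glycolytic enzymes held the highest levels per length. Over all 6 libraries Aldoa averaged 204 FPKM, Gpi 115 FPKM and Pgam1 101 FPKM, followed by Ldha at 54.3 FPKM, Eno1 at 45.2 FPKM and Pgk1 at 39.9 FPKM. Of the 16 glycolytic enzymes and lactate dehydrogenases, 1 rose and 0 fell, where 2.39% of all genes tested were called higher and 0.886% lower. A negative log2 fold change was seen for 12 of the 16, beside 50.1% of all genes tested. The median was -0.17 over the 16 and -0.00148 over all genes tested. The summed FPKM of the 16 was 673, 639 and 593 in hormone libraries 1 to 3, against 903, 725 and 687 in controls 1 to 3. Every hormone library was below every control, at 0.823 of the control mean. After TMM scaling the sums were 690, 661 and 636 against 832, 695 and 682, and hormone 1 then lay above control 3. Without control 1 the ratio of the deposited sums was 0.900.

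**Figure D3:**
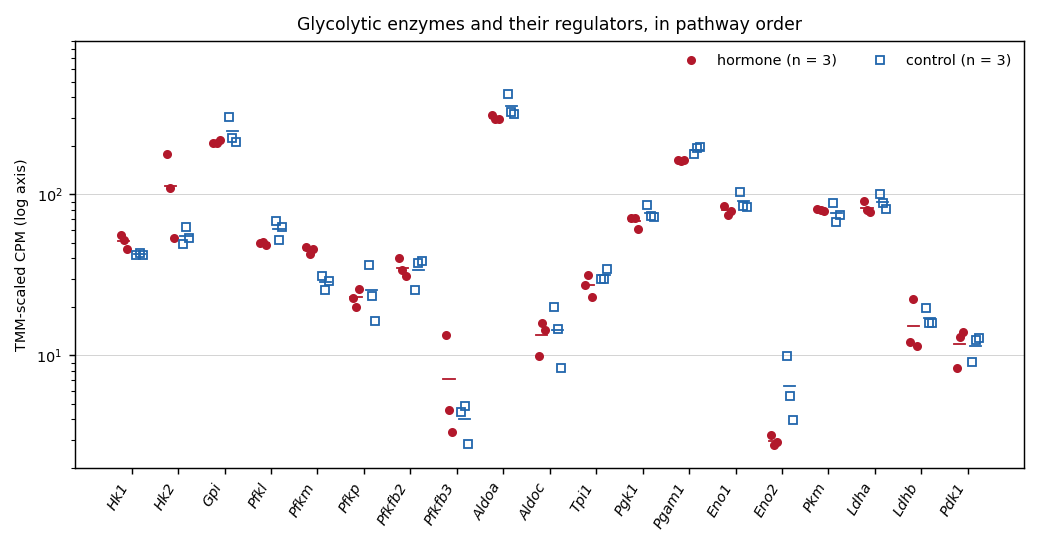
Levels of the 19 glycolytic enzymes and regulators in each library, as TMM-scaled CPM on a log axis, in pathway order from hexokinase to lactate dehydrogenase; filled circles are the 3 hormone libraries, open squares the 3 controls, and bars the group means. Pfkm is higher in all hormone libraries (42.4 to 47.1 CPM, against 25.3 to 31.0 CPM in controls), and Hk2 is high in hormone 1 and 2 only.

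Hexokinase, the entry step, had different patterns for its isoforms. Hk2, the inducible hexokinase of growing and insulin-responsive cells, had 177, 110 and 53.2 CPM in hormone libraries 1 to 3, against 49.2, 62.8 and 53.8 CPM in controls 1 to 3. Hormone 1 and 2 were above all controls, and hormone 3 was within the control range. The log2 fold change was 1.04 ± 0.38 (edgeR adjusted p = 0.167), and without hormone 1 it was 0.56. Hk1, the constitutive hexokinase, had 55.8, 52.2 and 45.6 CPM in hormone libraries and 42.1, 43.2 and 41.9 CPM in controls, a small difference without overlap that was not called (0.27 ± 0.11, adjusted p = 0.211). Hk2 took 61.0%, 50.9% and 36.6% of the hexokinase FPKM in hormone libraries, against 36.6%, 41.8% and 38.8% in controls. The macrophage marker sum was highest in hormone 1 too, at 502 CPM. It was 306 CPM in hormone 2 and 326 CPM in hormone 3, the reverse of their Hk2 order. Among the controls, both Hk2 and this sum were highest in control 2 and lowest in control 1. The part of macrophages or of dividing cells in the Hk2 values was not tested. Gpi, which turns glucose-6-phosphate into fructose-6-phosphate, had 208, 209 and 218 CPM in hormone libraries and 304, 225 and 212 CPM in controls (-0.22 ± 0.16, adjusted p = 0.423).

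Phosphofructokinase, the committing step, gave the 1 call among the enzymes and regulators. Pfkm, the muscle-type subunit, had 47.1, 42.4 and 46.1 CPM in hormone libraries, against 31.0, 25.3 and 28.9 CPM in controls. The groups did not overlap and each was tight. Means were 45.2 ± 2.48 CPM in hormone tissue and 28.4 ± 2.89 CPM in control tissue, a log2 fold change of 0.67 ± 0.12 (SE) or 1.59-fold (edgeR adjusted p = 0.0331). Of the 6 sets with 1 library left out, Pfkm passed in 1, the set without control 1 (adjusted p = 0.0333). It did not pass without hormone 1, 2 or 3 (0.116, 0.0860 and 0.112) or without control 2 or 3 (0.110 and 0.0599), and it also missed the threshold with library totals only (0.0687). Its log2 fold change lay between 0.50 and 0.74 in all 15 alternative settings. In the table Pfkm (ENSRNOG00000057988) lies on chromosome 7 at 139685573 to 139722132, and 0 of the 11 other genes tested within 500 kb were called.

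Pfkl and Pfkp, the liver-type and platelet-type subunits, were not higher. Pfkl had 49.8, 50.9 and 48.6 CPM in hormone libraries and 68.0, 51.9 and 63.1 CPM in controls, without overlap and not called (log2 fold change -0.29 ± 0.12, adjusted p = 0.219). Pfkp had 22.7, 20.1 and 25.9 CPM in hormone libraries and 36.7, 23.3 and 16.4 CPM in controls (-0.15 ± 0.28, adjusted p = 0.779). Within the phosphofructokinase FPKM, a share that library scaling does not touch, Pfkm took 33.6%, 31.9% and 32.3% in hormone libraries, against 18.6%, 20.8% and 22.5% in controls. Pfkl took 42.7%, 46.0% and 40.9% in hormone libraries, against 49.0%, 51.1% and 58.8% in controls. Both shares were without overlap between groups, and Pfkl remained the largest subunit in every library. The smooth muscle marker sums were highest in control 1, where Pfkm was 31.0 CPM, and they overlapped between groups. The 8 skeletal muscle markers with a row summed to 545, 484 and 797 CPM in hormone libraries and to 784, 563 and 451 CPM in controls, nearly all of it Acta1. Of the 4 markers tested 0 were called, with a positive fold change for 2 and a negative one for 2. Myh4 averaged 10.4 ± 4.54 CPM in hormone tissue and 2.80 ± 3.10 CPM in control tissue (adjusted p = 0.212). Tnnt3 averaged 5.35 ± 0.907 CPM in hormone tissue and 10.2 ± 3.41 CPM in control tissue (adjusted p = 0.132). Acta1 and Ckm had adjusted p of 0.969 and 0.414, and the 4 markers too low to test, Actn3, Mylpf, Tnni2 and Myoz1, were at or below 0.856 CPM in every library. The 10 markers of prostate luminal epithelium had log2 fold changes from -0.45 to 0.95, with a median of 0.39. The part of luminal epithelium or of either kind of muscle in the Pfkm values was not tested.

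**Figure D4:**
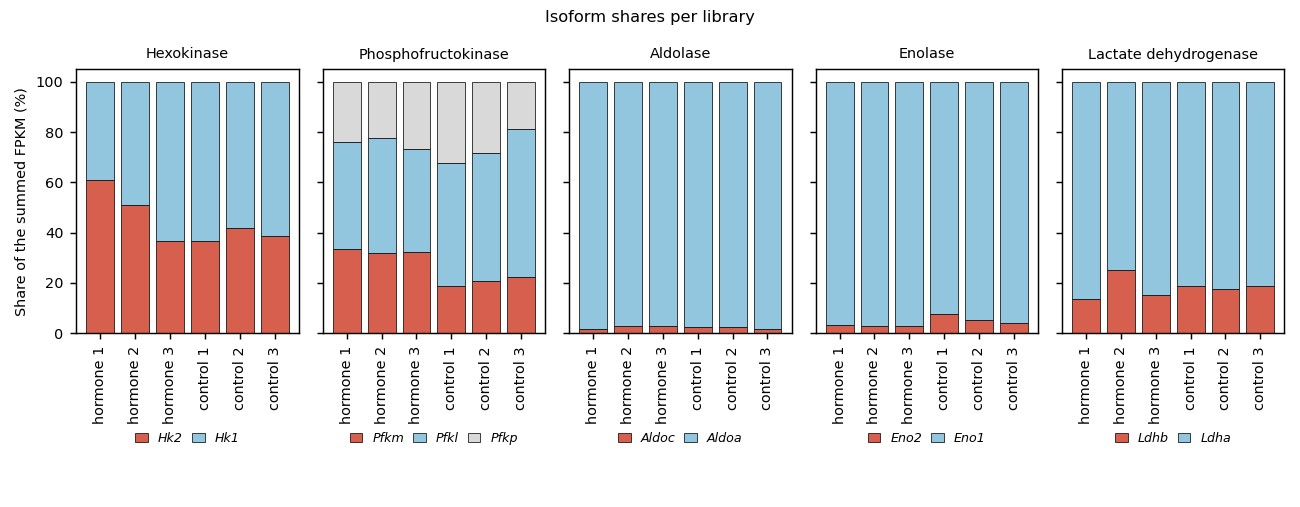
Share of the summed FPKM (y axis, percent) taken by each isoform of hexokinase, phosphofructokinase, aldolase, enolase and lactate dehydrogenase in each library, hormone 1 to 3 left of control 1 to 3. Pfkm took 31.9% to 33.6% in hormone libraries and 18.6% to 22.5% in controls, while the lactate dehydrogenase split overlapped between groups.

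The bifunctional enzymes that set fructose-2,6-bisphosphate, the activator of phosphofructokinase, did not differ as groups. Pfkfb3, an inducible form of high kinase activity, had 13.4, 4.58 and 3.36 CPM in hormone libraries and 4.42, 4.86 and 2.82 CPM in controls. Hormone 1 alone was high, and the log2 fold change of 0.82 ± 0.52 (adjusted p = 0.381) became -0.021 without it. Pfkfb2, a form regulated by phosphorylation in heart, averaged 35.02 ± 4.66 CPM in hormone tissue and 33.8 ± 7.38 CPM in control tissue.

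The main genes of the steps from aldolase to pyruvate kinase had no called difference. Aldoa, the main aldolase, had 312, 293 and 293 CPM in hormone libraries and 421, 325 and 318 CPM in controls (log2 fold change -0.24 ± 0.15, adjusted p = 0.351). Pgam1, phosphoglycerate mutase, had 163, 162 and 163 CPM in hormone libraries and 178, 195 and 197 CPM in controls (-0.22 ± 0.10, adjusted p = 0.240). Pgk1, phosphoglycerate kinase, had 71.4, 71.7 and 60.6 CPM in hormone libraries and 85.5, 73.1 and 71.9 CPM in controls (-0.18 ± 0.12, adjusted p = 0.414). In these 3 genes the hormone values lay below all control values, narrowly so for Pgk1. The same separation was seen for 15.3% of all genes tested. Tpi1 and Eno1 had log2 fold changes of -0.20 and -0.18, with adjusted p of 0.459 and 0.394, and their groups overlapped. The span of Tpi1 overlaps LOC100911548, which had 1216 counts over all libraries, and the strand setting of the counting was not given. Pkm, pyruvate kinase, had 81.4, 79.5 and 78.5 CPM in hormone libraries and 88.5, 67.2 and 74.3 CPM in controls (0.06 ± 0.12, adjusted p = 0.811), and its sign turned with library totals only (-0.070). Several of these enzymes have processed copies elsewhere in the genome, and the handling of reads shared between copies was not given in the sources used here.

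Eno2, the enolase of neurons and neuroendocrine cells, was the enzyme with the lowest fold change. It had 3.22, 2.76 and 2.89 CPM in hormone libraries and 9.85, 5.59 and 3.98 CPM in controls, without overlap (log2 fold change -1.12 ± 0.35, adjusted p = 0.130). Without control 1, the highest, it was -0.69 (adjusted p = 0.198, with 0.0464 to 0.279 over the alternatives). Eno2 took 3.09%, 3.03% and 3.00% of the enolase FPKM in hormone libraries, against 7.48%, 5.26% and 3.86% in controls. The hormone libraries were nearly equal and the controls spread widely. Of the 7 nerve and Schwann cell markers tested, 1 had a positive fold change and 0 were called. Their sums were 140, 208 and 168 CPM in hormone libraries and 212, 274 and 139 CPM in controls, which overlapped, and their part in the Eno2 values was not tested. Aldoc, an aldolase prominent in brain, averaged 13.4 ± 3.13 CPM in hormone tissue and 14.3 ± 5.76 CPM in control tissue.

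Lactate dehydrogenase and the brake on pyruvate entry to mitochondria were close between groups. Ldha had 90.8, 79.6 and 77.4 CPM in hormone libraries and 101, 88.6 and 81.6 CPM in controls (log2 fold change -0.13 ± 0.12, adjusted p = 0.561). Ldhb, whose subunit favours the use of lactate, had 12.0, 22.3 and 11.5 CPM in hormone libraries and 19.7, 15.8 and 15.9 CPM in controls (-0.16 ± 0.28, adjusted p = 0.755). Ldha took 86.3%, 74.9% and 85.0% of the lactate dehydrogenase FPKM in hormone libraries, against 81.1%, 82.4% and 81.2% in controls, and hormone 2 was the library out of step. Pdk1, the kinase that inhibits pyruvate dehydrogenase, had 8.30, 13.1 and 14.0 CPM in hormone libraries and 9.13, 12.5 and 12.8 CPM in controls (0.04 ± 0.25, adjusted p = 0.947). Its sign turned with library totals only (-0.088).

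Genes of adjoining pathways were counted from fixed lists. The share to set beside each list is that of all genes tested, 3.27% called, with 2.39% higher and 0.886% lower. Among 10 tested glycolysis genes outside the rule, 1 rose and 1 fell, with a median log2 fold change of -0.20. Hk3, the hexokinase of leukocytes, had 4.12, 2.91 and 2.42 CPM in hormone libraries and 0.642, 0.850 and 0.385 CPM in controls (2.32 ± 0.39, adjusted p = 0.0270). Hk3 and the macrophage marker sum were both highest in hormone 1. Hormone 3 had the lowest Hk3 value of its group, and hormone 2 the lowest marker sum. Among the controls both were highest in control 2, and the part of macrophages in the Hk3 values was not tested. Galm, the mutarotase that interconverts the anomers of glucose and galactose, had 21.2, 26.8 and 31.6 CPM in hormone libraries and 59.2, 46.3 and 51.0 CPM in controls (-0.98 ± 0.17, adjusted p = 0.0316). Neither gene overlapped between groups, and neither passed in any of the 6 sets with 1 library left out, with adjusted p up to 0.1002 and 0.107.

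Other carriers and chaperones gave 1 call. Slc50a1, a sugar carrier of the SWEET type, had 82.1, 114 and 124 CPM in hormone libraries and 61.6, 47.8 and 44.7 CPM in controls (log2 fold change 1.06 ± 0.19, adjusted p = 0.0327). It was the 1 called gene of 3 tested in the list of sodium-glucose cotransporters and SWEET, and it lost the call without hormone 2 or 3 or control 2 or 3 (adjusted p up to 0.110). Bsg, basigin, the chaperone that brings MCT1 and MCT4 to the membrane, had 436, 449 and 420 CPM in hormone libraries and 338, 388 and 391 CPM in controls and was not called (0.22 ± 0.12, adjusted p = 0.314). Of the 3 chaperone genes 0 were called.

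The mitochondrial and side pathways held 2 called genes, Suclg2 and Taldo1, where 3.27% of all genes tested were called. Of 19 citric acid cycle and citrate export genes 1 fell, with a median of -0.21. Suclg2, the GTP-forming subunit of succinyl-CoA ligase, had 86.5, 81.2 and 77.7 CPM in hormone libraries and 159, 173 and 202 CPM in controls (-1.12 ± 0.13, adjusted p = 0.00900), a call lost without hormone 2 or 3 (0.0566 and 0.0544). Of 9 pentose phosphate genes 1 fell, with a median of -0.24. Taldo1, transaldolase, had 163, 165 and 168 CPM in hormone libraries and 226, 232 and 237 CPM in controls (-0.48 ± 0.10, adjusted p = 0.0487), and passed with 1 library left out only in the set without control 1. Of 12 genes of pyruvate import and pyruvate dehydrogenase 0 were called, with a median of 0.04, and the smallest p belonged to Dlat (adjusted p = 0.0817), the acetyltransferase of the complex. Of 5 gluconeogenesis genes and 8 fructose and polyol genes 0 were called, with medians of -0.18 and -0.05, and the smallest p in each belonged to Pc and Mpi (adjusted p = 0.155 and 0.111).

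Glycogen metabolism had 1 gene higher and 1 lower of 15 tested, with a median near 0. That was 13.3% called, beside 3.27% of all genes tested. Gaa, the lysosomal alpha-glucosidase that degrades glycogen, had 220, 219 and 201 CPM in hormone libraries and 101, 114 and 121 CPM in controls (log2 fold change 0.93 ± 0.11, adjusted p = 0.0114). Ugp2, which makes the UDP-glucose used for glycogen and glycans, had 73.3, 81.9 and 84.3 CPM in hormone libraries and 125, 147 and 146 CPM in controls (-0.80 ± 0.12, adjusted p = 0.0169). Both lost their calls when any 1 hormone library or control 2 was left out, with adjusted p up to 0.0636 and 0.0842, and neither gene overlapped between groups.

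Of 17 hypoxia response genes 1 fell, with a median of -0.08, where 0.886% of all genes tested were called lower. Vegfa, the angiogenic factor, had 132, 136 and 107 CPM in hormone libraries and 240, 218 and 176 CPM in controls (log2 fold change -0.76 ± 0.16, adjusted p = 0.0497). It sat at the edge of the threshold and passed with 1 library left out only in the set without control 3. Of 16 regulators of glucose sensing and glycolysis 1 was called, where 3.27% of all genes tested were. Esrrb, an orphan nuclear receptor, had 340 counts in hormone 1 and 0 in control 1, with 21.9, 11.8 and 3.59 CPM in hormone libraries and 0, 0 and 0.257 CPM in controls (adjusted p = 0.0175), and it lost the call in 5 of the 6 sets with 1 library left out (up to 0.0780).

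**Figure D5:**
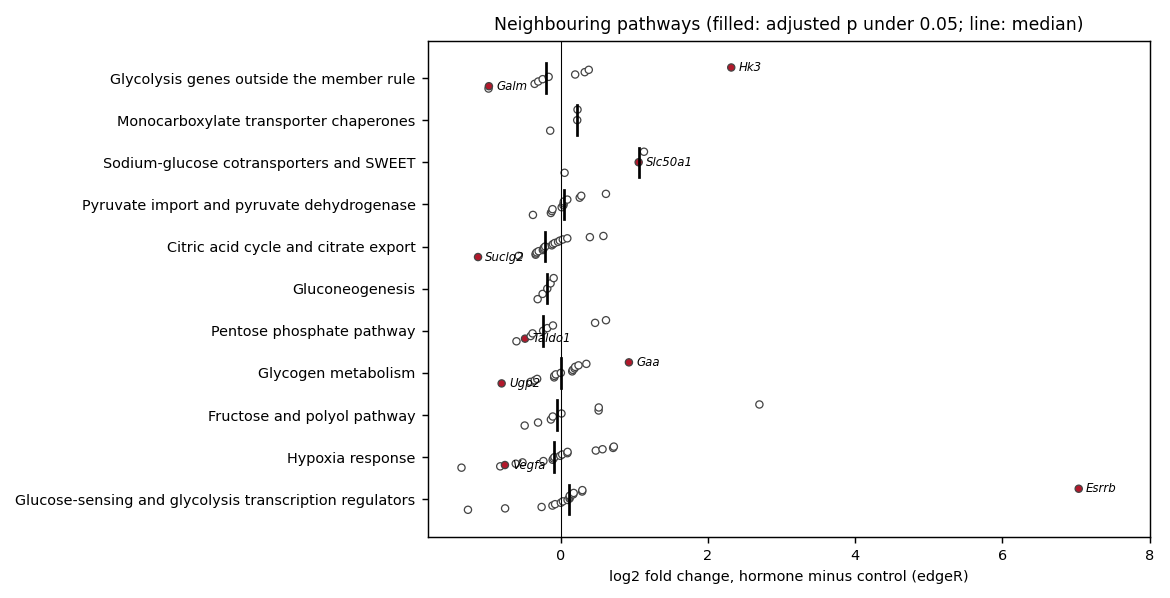
Log2 fold change (x axis, hormone minus control, edgeR) of every gene tested in 11 lists of adjoining pathways, 1 row per list; filled points passed an adjusted p under 0.05 and the black line is the list's median. Most medians lie near 0, from -0.24 for the pentose phosphate pathway to 0.22 for the chaperones, and 1.06 for the list of 3 sugar cotransporter and SWEET genes; the far-right point, Esrrb, is a fitted value against controls at or near 0 and gives no fold.

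Set against the whole table, the members' groups separated about as often as those of any gene. No overlap between hormone and control values was seen for 12 of the 39 members (3 higher and 9 lower), or 30.8%, beside a background of 31.3%. In the 2 directions the background was 16.1% higher and 15.3% lower. DESeq2 called 2 members higher and 4 lower, Slc16a7, Slc2a10, Slc2a4 and Eno2, while it called 906 and 618 genes in all.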

How the data were processed

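RNA of 6 rat prostate tissues was sequenced as paired-end libraries (TruSeq RNA kit), per the labels' protocols. TopHat, Bowtie2 and HTSeq were used per the submitters' processing notes. Tool versions, genome build, strand setting and the handling of multi-mapping reads were not given in the sources used here. Per the file headers, the single table the authors deposited holds raw counts and FPKM of each gene and library, with 0 columns of other samples.

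Counts were tested with edgeR 4.0.16 (R 4.3.3): filterByExpr (minimum count 10, minimum total 15), TMM, robust quasi-likelihood F-test, no block, 4 residual degrees of freedom, two-sided, Benjamini-Hochberg adjustment over 14003 genes. The SE was derived as log2 fold change over root F. FPKM served for shares and sums between genes. Intervals are not given, and SDs cover 3 tissues per group. Totals were 12931982 to 15949500 counts, and 3 counts correspond to 0.188 to 0.232 CPM.

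Members, lists and rules were chosen with earlier results of these data known. Values per library were given for members called, for the 16 others with the smallest p and for a set of central genes, and from the adjoining pathways for called genes, with the smallest p of lists that had none. Alternatives were DESeq2 1.42.0, 3 other scalings, 2 other filters, limma 3.58.1 on log2(FPKM + 1) and log2(FPKM + 0.1), the replicate block and leaving out each library. The values of 1 member are not reported here, although it is included in the counts and sums.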

Additional observations from a re-analysis of the deposited data

How the results depend on the processing

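Slc16a14 kept its direction and its call in all 15 alternative settings, with a log2 fold change of 2.52 to 4.35, and of 3.82 to 4.35 with 1 library left out. Pfkm kept its direction but not its call: it was not called with library totals only (log2 fold change 0.54), with limma on log2(FPKM + 1) or log2(FPKM + 0.1) (0.50 and 0.54) or with the replicate block (0.67), and ranged from 0.59 to 0.74 with 1 library left out. Members called higher numbered 1 in these 4 settings, and 1 to 2 with a library left out. Members called lower numbered 4 with DESeq2, 1 with library totals only, upper-quartile factors or the replicate block, and 0 to 1 with a library left out. The median over the members was -0.30 with library totals only, -0.30 and -0.30 with limma, and ranged from -0.21 to -0.083 with a library left out. Library totals moved the median of all genes to -0.13, and limma moved it to -0.11 and -0.12.

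Over all genes DESeq2 called 906 higher and 618 lower, limma 140 and 146 higher, library totals 230 lower and the replicate block 80 lower. With a library left out the counts were 51 to 313 higher and 12 to 156 lower. The share of calls that were higher was 72.9% with TMM and 53.0% with library totals only. Same-numbered tissues deviated together with correlations of 0.08, -0.06 and 0.07, and tissues of different numbers with -0.17 to 0.12. Hormone 1 correlated best with control 2, hormone 2 with control 3 and hormone 3 with control 3. With 3 tissues per group, such weak values cannot settle whether the replicate numbers pair the tissues. The block therefore only shows that 228 higher genes were called with it.

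Where a sign turned, the adjusted p in that setting was 0.609 to 0.984. Slc16a3 was -0.068 with library totals only, -0.028 and -0.030 with limma, and -0.29 to 0.59 with a library left out. Pkm was -0.070 with library totals only, -0.056 and -0.057 with limma, and -0.028 to 0.17 with a library left out. Pdk1 was -0.088 with library totals only, -0.090 and -0.10 with limma, and -0.10 to 0.23 with a library left out. With a library left out, Pfkfb3 ran from -0.021 to 1.17, Ldhb from -0.53 to 0.015 and Pfkp from -0.39 to 0.20, turning without hormone 1, hormone 3 and control 1 in that order. The summed FPKM of the glycolytic enzymes was 0.900 of the control mean after TMM scaling, and 0.780 to 0.900 with a library left out. The causes were not tested. With 3 tissues per group and levels under a few CPM, differences of Slc2a5, Slc2a6 and Slc16a6 could not be told from the spread.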
